A study of Mus musculus with 4 samples.

Results

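The genes described here are 10 genes of the circadian clock and its outputs, taken by symbol from a table of 17655 genes measured by RNA-seq in RAW264.7 cells, a mouse macrophage line. They were chosen by known function and selected on their FPKM in these libraries, in the ligand and control comparisons alike, so their levels and differences are given as a description with no test. The core activators are Arntl, whose product is also called BMAL1, and Clock. The repressors are Per1, Per2, Per3, Cry1, Nr1d1 and Nr1d2, and the outputs are Dbp and Tef. All 10 were in the table, and 9 had an FPKM (fragments per unit of transcript length and of mapped reads) of at least 1 in at least 1 library, which held for 11183 genes in all.

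Each of the 4 conditions has 1 library of cells that were made permeable with digitonin and then kept with a ligand or a control for 24 h. The ligands, both at 10 µM in water, were ManGn, the synthetic disaccharide Manβ1-4GlcNAc, and the Trex1-/- fOS pool, the free oligosaccharides of mouse embryonic fibroblasts that lack the nuclease Trex1. One control was ultrapure water, and in the other the water came from a mock fOS extraction. The sample titles give the letter A to ManGn and water and the letter B to fOS and the mock extraction, without saying what the letters stand for. With 1 library per condition, differences cannot be checked against replicates and p-values are not given. The time of day of the harvest and any step that sets the clocks of the cells to one phase are not stated in the sources consulted. In a bulk library, fewer cells with a transcript and less transcript per cell cannot be told apart.

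The mammalian clock is a feedback loop of transcription. CLOCK and ARNTL bind as a pair to E-boxes in DNA and activate the Per and Cry genes, whose products then inhibit the pair. The same pair activates Nr1d1 and Nr1d2, which encode the nuclear receptors REV-ERBα and REV-ERBβ, and these repress Arntl through sites called ROREs. DBP and TEF are bZIP activators that bind D-boxes and carry the rhythm to output genes. Macrophages have such a clock, and REV-ERB proteins are known there as repressors of inflammatory genes. Per1 is also an immediate-early gene that responds to CREB and to the glucocorticoid receptor.

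The promoters of the members show which of these elements lie close to their start sites. RefSeq promoter windows on GRCm38.p6, 250 bases before to 50 bases after a start site, were matched for 9 of the 10 members. The E-box CACGTG, the E'-box CACGTT, the D-box TTATGTAA or TTACGTAA and the RORE consensus were searched on both strands, and 6 of the 9 members held at least 1. A member counts where any of its 1 to 3 windows holds an element. The share of all genes that meet this rule was not computed, so nothing is read from the count of 6. The plan named the E-box and the D-box only, and Nr1d1 and Arntl held only the elements added later. The following sequences are shown because they hold these elements, which are in capitals, and the strand is that of the gene.
Per1, chr11:69098763-69098808, plus strand, E-box: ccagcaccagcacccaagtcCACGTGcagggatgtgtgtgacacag
Tef, upstream start site, chr15:81802526-81802571, plus strand, E-box: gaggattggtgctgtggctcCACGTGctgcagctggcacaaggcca
Tef, downstream start site, chr15:81811256-81811301, plus strand, E-box: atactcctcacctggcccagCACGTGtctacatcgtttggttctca
Nr1d1, chr11:98775380-98775425, minus strand, E'-box on the other strand: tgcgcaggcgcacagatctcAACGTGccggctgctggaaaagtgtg
Cry1, chr10:85185089-85185153, minus strand, E'-box on the other strand and E-box: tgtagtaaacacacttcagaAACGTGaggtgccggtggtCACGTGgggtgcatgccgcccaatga
Per3, chr4:151044796-151044890, minus strand, 2 D-boxes: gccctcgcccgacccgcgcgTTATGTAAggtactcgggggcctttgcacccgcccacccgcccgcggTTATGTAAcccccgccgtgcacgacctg
Arntl, chr7:113207528-113207557, plus strand, RORE: ggaaggcagAAAGTAGGTCAgggacggagg
Counted from the start site as 0, the first base of the E-box lies at -166 from 1 of the 2 start sites of Per1, at -127 and -138 in Tef and at -60 in Cry1. The E'-box lies at -28 in Nr1d1 and at -79 in Cry1, the D-boxes of Per3 at -205 and -158, and the RORE at 26 from 1 of the 2 start sites of Arntl. Among all 32851 promoters of the table, 7.15% held the E-box, 4.68% the E'-box, 1.06% the D-box and 0.384% the RORE. Dbp, Nr1d2 and Clock held none of these letters in their windows, which says nothing about sites elsewhere in those genes.

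The libraries had 10405 to 10663 genes at an FPKM of at least 1, and their depth, read from the spacing of the lowest FPKM values, was estimated as 10120000 to 10804000 reads. Of the values used, 67.8% to 73.2% came out whole to within 0.1 reads, so the estimated reads below are approximate. The 10 macrophage markers summed to 8413 to 9360 FPKM, and Lyz2, the lysozyme of macrophages, was at 6202 to 7250 FPKM. Cd14, the co-receptor for lipopolysaccharide, measured 366.92 FPKM in the ManGn library, 385.14 in fOS, 253.59 in the mock extraction and 64.92 in water, so that in this marker too water stood apart. At least 2-fold higher than in water were 1 of the 10 markers with ManGn, 2 with fOS and 4 with the mock extraction, and at least 2-fold lower were 1 with ManGn, 1 with fOS and 0 with the mock extraction. Over the mock extraction, 2 markers were lower with ManGn and 1 with fOS, and 0 were higher with either. Of the 11183 genes, 9.44% were higher than in water with ManGn, 14.1% with fOS and 9.24% with the mock extraction. Lower than in water were 7.37%, 14.3% and 6.69% in that order. Over the mock extraction, 3.47% were lower and 3.51% higher with ManGn, and 6.41% lower and 2.67% higher with fOS. Itgam, an integrin chain of macrophages, was at least 2-fold below both controls with both ligands. It measured 49.82 FPKM in the ManGn library, 44.44 in fOS, 135.86 in the mock extraction and 103.45 in water. Below both controls in this way were 1.23% of the 11183 genes with ManGn and 4.37% with fOS. The part of these markers in the results on clock genes was not tested. Fibroblast markers summed to 0.02 to 0.16 FPKM, and the defining genes Dcn, Lum and Pdgfra were listed at 0 in all 4 libraries. Log2 ratios were taken after adding 0.1 to each FPKM, which shrinks differences between low values. A gene counts as higher or lower where 2 libraries differ by 2-fold or more and either of them reaches 1 FPKM.

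The library with plain water stood apart from the other 3 in these genes. It held the highest level of 7 of the 10 members, namely Per1, Per2, Per3, Nr1d1, Nr1d2, Dbp and Tef. The fOS library held the lowest level of 6, namely Per1, Per2, Per3, Cry1, Nr1d1 and Arntl. Between the highest and the lowest library, 4 members differed over 6-fold (Nr1d1, Dbp, Per1 and Per3) and 3 differed less than 2-fold (Clock, Nr1d2 and Cry1). The mock extraction, which held no added ligand, lay nearer to both ligands than to water in Dbp, Nr1d1, Per1 and Tef.

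**Figure D1:**
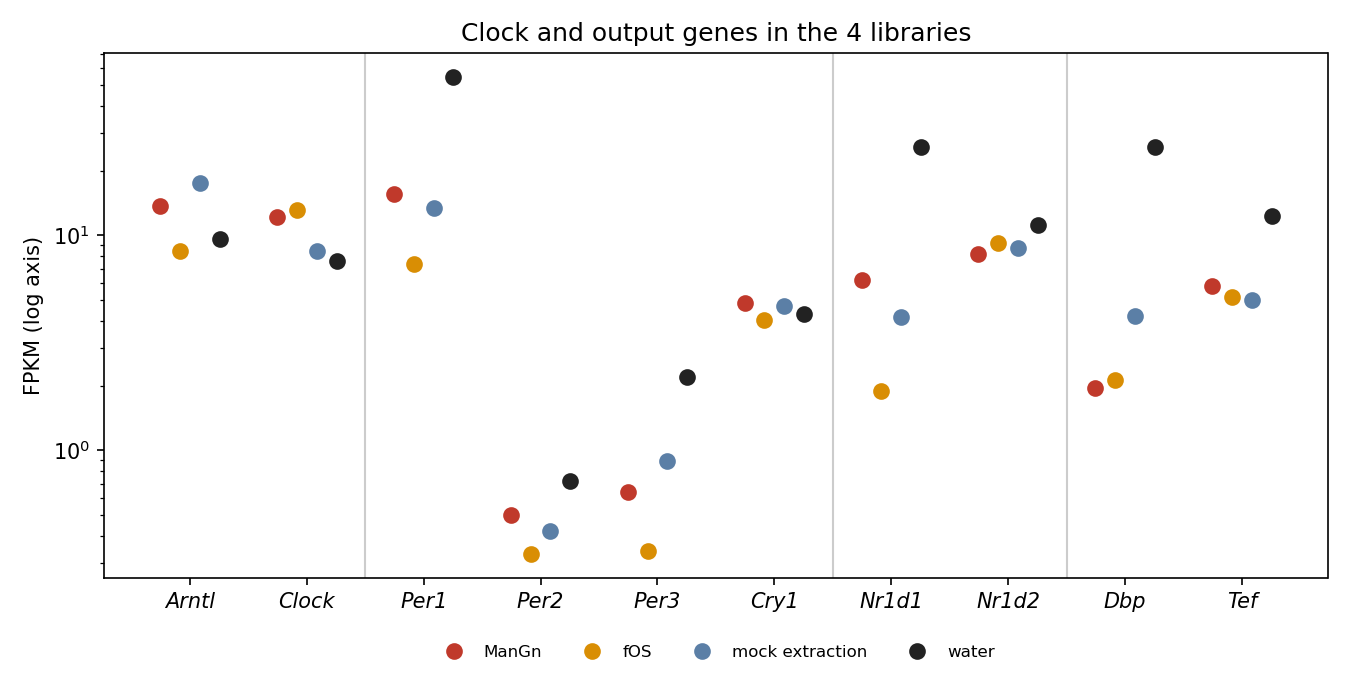
FPKM of the 10 genes on a log axis in the 4 libraries, 1 point per library, ordered as activators, Per and Cry repressors, REV-ERB receptors and outputs. Per1, Nr1d1, Dbp and Tef with water lie above the other 3 libraries, while Cry1 lies between 4.04 and 4.83 in all 4.

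Of the activators, Clock (Entrez Gene 12753), the partner with acetyltransferase activity, measured 12.14 FPKM in the ManGn library and 13.15 in fOS, against 8.48 in the mock extraction and 7.64 in water. Both ligand libraries were above both controls, by less than 2-fold. The log2 ratio of Clock was 0.66 with ManGn and 0.78 with fOS relative to water, and 0.51 with ManGn and 0.63 with fOS relative to the mock extraction. In estimated reads, fOS over the mock extraction came to 1.55 times, with an exact 95% interval of 1.40 to 1.71, which like all intervals here covers counting error only. Arntl (11865), the partner of Clock, measured 13.65 FPKM in the ManGn library, 8.45 in fOS, 17.53 in the mock extraction and 9.62 in water. Its highest level was thus in a control, and its lowest was with fOS. The log2 ratio of Arntl was -1.04 for fOS over the mock extraction, past 2-fold, and -0.19 for fOS over water. For ManGn it was 0.50 over water and -0.36 over the mock extraction, so the sign turned with the control.

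Of the Per genes, whose products form the repressor complex with CRY proteins, Per1 made up 91.1% to 94.9% of the summed FPKM of the 3 in each library. Per1 (18626) measured 15.5 FPKM in the ManGn library, 7.34 in fOS, 13.39 in the mock extraction and 54.65 in water. ManGn and the mock extraction were close, fOS was lower than both, and water was far above the rest. Its log2 ratio was -1.81 with ManGn and -2.88 with fOS, each relative to water. Over the mock extraction it was 0.21 with ManGn and -0.86 with fOS, each under 2-fold. Water held at least 2562 reads of Per1 and fOS at least 366, taking the shorter of its 2 listed transcripts.
Per3 (18628), which acts beside the other Per genes with a lesser part in the core loop, measured 0.64 FPKM in the ManGn library, 0.34 in fOS, 0.89 in the mock extraction and 2.2 in water. Only water was above 1 FPKM, with 134 estimated reads against 39.2 with ManGn, 21.9 with fOS and 53.8 with the mock extraction. The log2 ratio of Per3 was -1.64 with ManGn and -2.39 with fOS, each relative to water. Over the mock extraction, where neither library reached 1 FPKM and no call was made, fOS came to -1.17. Per2 (18627), a core repressor, measured 0.5 FPKM in the ManGn library, 0.33 in fOS, 0.42 in the mock extraction and 0.72 in water, and was not counted in any comparison. It had 20.7 to 42.5 estimated reads per library, and its read ratio was 0.692 for ManGn over water with an interval of 0.419 to 1.13. A difference of Per2 between ManGn and water was thus not detectable at this depth. Over water the ratio was 0.460 for fOS (0.259 to 0.792) and 0.584 for the mock extraction (0.342 to 0.978), and both intervals left out 1.

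Cry1 (12952), the cryptochrome that inhibits CLOCK and ARNTL most strongly, measured 4.83 FPKM in the ManGn library, 4.04 in fOS, 4.69 in the mock extraction and 4.3 in water. It varied least of the 10, by 1.20-fold from the lowest to the highest library. The interval of its read ratio held 1 in each of the 6 pairs of libraries, and for fOS over the mock extraction it ran between 0.676 and 1.10.

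The REV-ERB receptors parted. Nr1d1 (217166) measured 6.22 FPKM in the ManGn library, 1.88 in fOS, 4.18 in the mock extraction and 25.7 in water. All 3 other libraries were far below water, and fOS was the lowest. The log2 ratio of Nr1d1 was -2.03 with ManGn and -3.70 with fOS relative to water, and -1.11 with fOS relative to the mock extraction. For ManGn over the mock extraction it was 0.56, on the other side of 0. In estimated reads, Nr1d1 was 13.6-fold lower with fOS than with water (interval 10.3 to 18.3) and 2.21-fold lower than with the mock extraction (1.59 to 3.11). Nr1d2 (353187), which encodes REV-ERBβ and overlaps with Nr1d1 in function, measured 8.18 FPKM in the ManGn library, 9.18 in fOS, 8.73 in the mock extraction and 11.19 in water. Its levels with both ligands and the mock extraction lay close together, and water was above them by less than 2-fold. The level of Nr1d1 was 0.760 times that of Nr1d2 with ManGn, 0.205 times with fOS, 0.479 times with the mock extraction and 2.30 times with water. Such ratios within a library do not depend on how libraries are scaled. The level of Arntl, the gene that these receptors repress, was 2.19 times that of Nr1d1 with ManGn, 4.49 times with fOS, 4.19 times with the mock extraction and 0.374 times with water. Water was thus the only library with more Nr1d1 than Arntl.

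Of the outputs, Dbp (13170) measured 1.94 FPKM in the ManGn library, 2.12 in fOS, 4.22 in the mock extraction and 25.73 in water. Both ligand libraries were below both controls, and the mock extraction was far closer to them than to water. The log2 ratio of Dbp was -3.66 with ManGn and -3.54 with fOS, each relative to water. It was -1.08 for ManGn and -0.96 for fOS over the mock extraction, so that the first was just past 2-fold and the second just short of it. The estimated reads were 36.0 with ManGn, 41.5 with fOS, 77.4 with the mock extraction and 474 with water. From these, Dbp was 2.17-fold lower with ManGn than with the mock extraction (interval 1.44 to 3.31) and 1.96-fold lower with fOS (1.33 to 2.92). Between the ligands the interval of the ratio, 0.563 to 1.45, held 1. Tef (21685), a second bZIP activator of the same D-box family, measured 5.84 FPKM in the ManGn library, 5.16 in fOS, 4.98 in the mock extraction and 12.27 in water. The 3 libraries other than water lay close together, with a log2 ratio over the mock extraction of 0.23 with ManGn and 0.050 with fOS. Over water, Tef stood at -1.06 with ManGn and -1.23 with fOS. The level of Dbp was 0.332 times that of Tef with ManGn, 0.411 times with fOS, 0.847 times with the mock extraction and 2.10 times with water.

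Each ligand was set against both controls. Over water, ManGn was at least 2-fold lower in 5 of the 10 members (Dbp, Nr1d1, Per1, Per3 and Tef) and higher in 0, where 7.37% of the 11183 genes were lower and 9.44% higher. Over the mock extraction, ManGn was lower in 1 member, Dbp, and higher in 0, where 3.47% of genes were lower and 3.51% higher. With fOS over the mock extraction, 2 members were lower (Nr1d1 and Arntl) and 0 higher, where 6.41% of genes were lower and 2.67% higher. With fOS over water, 5 members were lower (Dbp, Nr1d1, Per1, Per3 and Tef) and 0 higher, where 14.3% of genes were lower and 14.1% higher. After adding 1 instead of 0.1 to each FPKM, 0 members were lower than the mock extraction with either ligand. With 0.1 added, lower than both controls was 1 member with ManGn, Dbp, and 1 with fOS, Nr1d1. Of all genes tested, 1.23% were lower than both with ManGn and 4.37% with fOS. After scaling to the same upper quartile, Dbp with fOS was lower than both controls as well. The members were chosen with these comparisons known, so nothing is read from the counts against the shares. The 2 comparisons with water share that library, and the 2 with the mock extraction share theirs.

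The controls differed from each other in the same genes, in a comparison that uses the same water library as those of the ligands over water. These comparisons are therefore not independent. The mock extraction was at least 2-fold lower than water in 5 members (Dbp, Nr1d1, Per1, Per3 and Tef) and higher in 0, where 6.69% of genes were lower and 9.24% higher. The log2 ratio of the mock extraction over water was -2.59 for Nr1d1, -2.58 for Dbp, -2.02 for Per1, -1.28 for Tef and -1.22 for Per3. For Arntl it was 0.86, the highest among the members. In Tef and Arntl the difference between the controls was larger in size than that of either ligand over water. In Nr1d1 and Per1 it was larger than that of ManGn over water. For Tef, the read ratio over the mock extraction had an interval of 0.973 to 1.42 with ManGn. With fOS it was 0.855 to 1.26, so no direction was resolved for Tef with either ligand. Of the 11183 genes, ordered from the lowest log2 ratio, Nr1d1 stood at place 95 and Dbp at place 97 in this comparison of controls. With ManGn over water Dbp stood at place 51, and over the mock extraction at place 339.

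**Figure D2:**
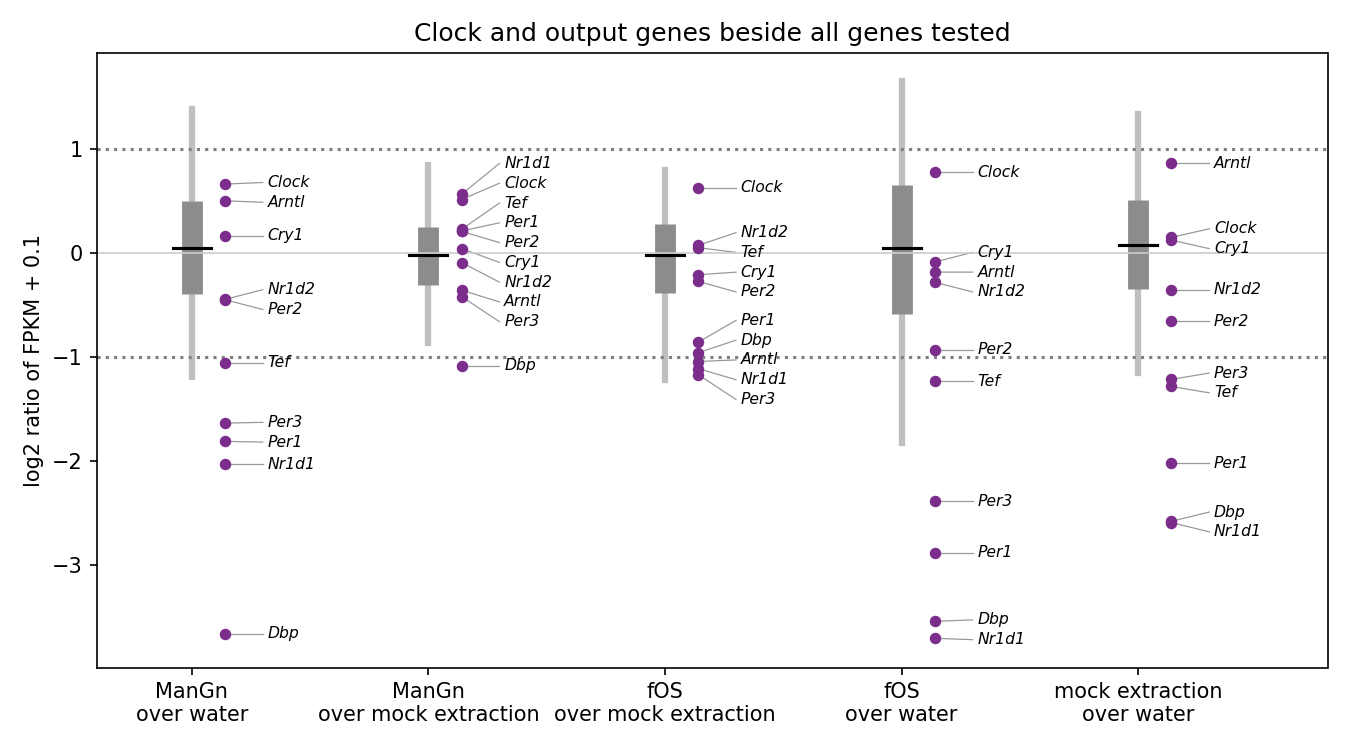
Log2 ratio of FPKM plus 0.1 for the 10 genes (points) in 5 comparisons, beside all 11183 genes tested (grey: thin bar from the 5th to the 95th percentile, thick bar the middle quartiles, black line the median), with dotted lines at 2-fold. Dbp, Nr1d1, Per1, Per3 and Tef lie below the lower dotted line in the 3 comparisons over water, including that of the mock extraction. These 5 genes lie closer to 0 in the 2 comparisons over the mock extraction. With fOS, Arntl and Cry1 lie farther from 0 over the mock extraction than over water, and Arntl passes the lower dotted line.

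The counting error of the read ratios was small beside the differences over water for most members. For ManGn over water, the interval of the read ratio left out 1 for 8 of the 10 members, with Per2 and Cry1 as the exceptions. For Dbp, 13.3-fold lower with ManGn than with water, the interval ran between 9.44 and 19.2. For Per1, 7.44-fold lower with fOS than with water, it ran between 6.66 and 8.32. The number of cultures, which is 1 per condition, was not part of these intervals.

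**Figure D3:**
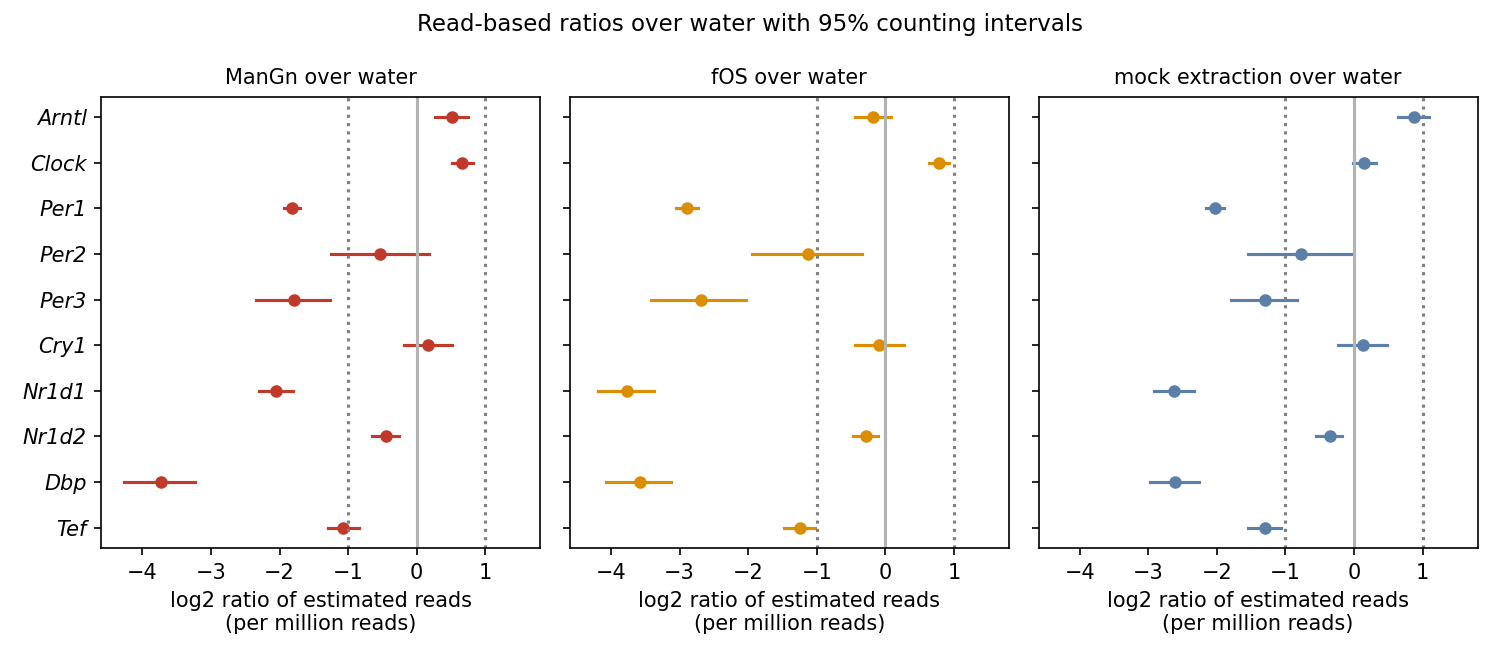
Log2 ratio of estimated reads, scaled to the depth of each library, over water for the 10 genes, with exact 95% intervals as bars, for ManGn (left), fOS (middle) and the mock extraction (right), and dotted lines at 2-fold. The intervals of Per1, Per3, Nr1d1, Nr1d2, Dbp and Tef over water lie below 0 in the 3 panels, and those of Cry1 cross 0 in each.

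Set directly against each other at the same dose and time, the ligands differed at least 2-fold in 2 members. In this comparison 6.33% of genes were higher and 2.48% lower with ManGn. Nr1d1 was 3.30 times higher in estimated reads with ManGn than with fOS (interval 2.42 to 4.55), and Per1 2.11 times (1.86 to 2.40). Arntl was 1.62 times as high with ManGn as with fOS (1.37 to 1.92). Per3, under 1 FPKM in both libraries, was 1.87 times as high (1.08 to 3.31). For Tef the ratio was 1.13 (0.942 to 1.37), for Nr1d2 0.892 (0.777 to 1.02) and for Clock 0.923 (0.844 to 1.01). The disaccharide is a single compound and the pool a mixture, so equal molar doses are not equal doses of one structure. The ligands also differ in title letter, and only the pool came from an extraction. The part of these in the ratios was not tested.

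Other genes of the clock were followed as a list of 21, of which 14 reached 1 FPKM in a library. With fOS over the mock extraction, 4 were lower and 0 higher (median log2 ratio -0.41, against -0.024 over all genes tested), and with fOS over water 6 were lower and 0 higher (median -0.59, against 0.046). With ManGn over the mock extraction, 0 were lower and 1 higher (median -0.013, against -0.023), and over water 2 were lower and 0 higher (median -0.21, against 0.050). For the mock extraction over water, 3 were lower and 0 higher (median -0.37, against 0.074). Of all genes tested, 6.41% were lower and 2.67% higher with fOS over the mock extraction, and 3.47% lower and 3.51% higher with ManGn. Over water, 14.3% were lower with fOS, 7.37% with ManGn and 6.69% with the mock extraction. Higher over water were 14.1% with fOS, 9.44% with ManGn and 9.24% with the mock extraction. The 4 genes lower with fOS than with both controls, which held for 4.37% of all genes tested, were Cry2, Bhlhe40, Nfil3 and Ciart. Bhlhe41, a repressor related to Bhlhe40, was lower with fOS over water at a log2 ratio of -2.22 but came to -0.79 over the mock extraction, under 2-fold. Cry2 (12953), the other cryptochrome, measured 6.45 FPKM in the ManGn library, 2.37 in fOS, 6.34 in the mock extraction and 15.11 in water. Ciart (229599), which is listed under the older symbol Gm129 and encodes a repressor of CLOCK and ARNTL, measured 5.61 FPKM in the ManGn library, 0.95 in fOS, 5.1 in the mock extraction and 10.94 in water. In both genes fOS was the lowest library, and ManGn and the mock extraction were close to each other. Nfil3 (18030), which represses the D-boxes that DBP and TEF activate, measured 10.61 FPKM in the ManGn library, 3.1 in fOS, 13.98 in the mock extraction and 19.03 in water.
Bhlhe40 (20893), also called DEC1, which competes at E-boxes, measured 59.66 FPKM in the ManGn library, 11.24 in fOS, 27.78 in the mock extraction and 35.4 in water. It was lowest with fOS and highest with ManGn, with log2 ratios of -1.30 for fOS and 1.10 for ManGn over the mock extraction. Over water, Bhlhe40 with ManGn came to 0.75, under 2-fold. Npas2, Arntl2, Rora, Rorb, Hlf and Fbxl21 were among those under 1 FPKM in each library. Of these, Rora encodes an activator that binds ROREs, and it was at 0.11 to 0.3 FPKM. Of the kinases that set the stability of PER proteins, Csnk1e measured 16.49 FPKM in the ManGn library, 9.84 in fOS, 15.98 in the mock extraction and 26.87 in water, and was lower with fOS over water at a log2 ratio of -1.44. Csnk1d measured 28.32 FPKM in the ManGn library, 33.17 in fOS, 34.49 in the mock extraction and 34.43 in water.

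**Figure D4:**
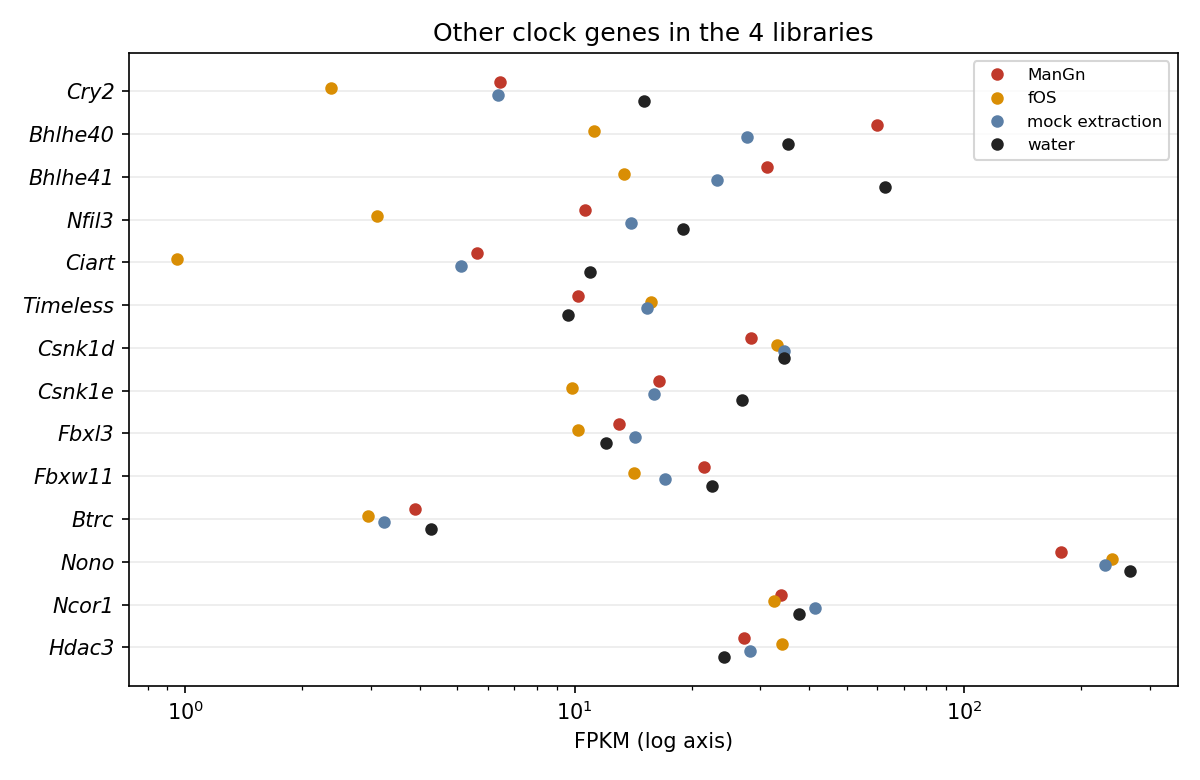
FPKM on a log axis of the 14 other clock genes that reached 1 FPKM, 1 point per library. The fOS points of Cry2, Bhlhe40, Nfil3 and Ciart lie left of the other 3 libraries, and the points of Csnk1d, Ncor1 and Hdac3 lie close together.

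Of 15 genes of signals that reach the clock, over the mock extraction ManGn gave 2 higher and 0 lower, with a median log2 ratio of -0.12, and fOS gave 1 higher and 1 lower, with a median of 0.058. Over water, ManGn gave 3 higher and 1 lower (median 0.46) and fOS 4 higher and 2 lower (median 0.19). The mock extraction, with no ligand, gave 4 higher and 0 lower over water (median 0.17). Of all genes tested, 9.44% were higher over water with ManGn, 14.1% with fOS and 9.24% with the mock extraction. The medians of all genes tested were 0.050, 0.046 and 0.074 in that order. Lower over water were 7.37% with ManGn, 14.3% with fOS and 6.69% with the mock extraction. Over the mock extraction, 3.51% were higher and 3.47% lower with ManGn, and 2.67% higher and 6.41% lower with fOS. Fos (14281), an AP-1 subunit, measured 10.53 FPKM in the ManGn library, 34.37 in fOS, 13.71 in the mock extraction and 3.68 in water. Egr1 (13653), an immediate-early factor, measured 28.99 FPKM in the ManGn library, 12.24 in fOS, 12.5 in the mock extraction and 2.38 in water. Fos thus stood above the mock extraction with fOS, and Egr1 with ManGn. Tsc22d3 (14605), a target of the glucocorticoid receptor, measured 9.03 FPKM in the ManGn library, 3.22 in fOS, 17.47 in the mock extraction and 24.12 in water. Fkbp5, another target of that receptor, measured 11.46 FPKM in the ManGn library, 14.45 in fOS, 11.51 in the mock extraction and 9.98 in water, so the pair did not move alike.

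Of 12 genes known as outputs of the clock, 11 were in the table and 10 reached 1 FPKM. With ManGn over the mock extraction 1 was higher and 1 lower, and with fOS 1 was higher and 1 lower (median log2 ratios -0.087 with ManGn and 0.11 with fOS). Over water, 2 were higher and 3 lower with ManGn, and likewise with fOS (medians -0.31 with ManGn and 0.044 with fOS), where 9.44% of all genes were higher and 7.37% lower with ManGn, and 14.1% higher and 14.3% lower with fOS. For the mock extraction over water, 1 was higher and 2 lower (median -0.17), where 9.24% of all genes were higher and 6.69% lower. Over the mock extraction, 3.51% of all genes were higher and 3.47% lower with ManGn, and 2.67% higher and 6.41% lower with fOS. Por (18984), the reductase that supplies cytochromes P450 with electrons, measured 83.73 FPKM in the ManGn library and 117.96 in fOS, against 41.68 in the mock extraction and 34.25 in water. Both ligand libraries were at least 2-fold above both controls in Por, with ManGn just past 2-fold over the mock extraction. Usp2 (53376), a deubiquitinase, measured 2.07 FPKM in the ManGn library, 8.13 in fOS, 5.08 in the mock extraction and 5.11 in water. Klf9 (16601), a zinc finger factor, measured 10.56 FPKM in the ManGn library, 5.91 in fOS, 13.7 in the mock extraction and 17.6 in water. Wee1, a kinase that holds back mitosis and a known clock output in mouse liver, measured 10.98 FPKM in the ManGn library, 12.88 in fOS, 11.54 in the mock extraction and 12.14 in water.

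The 5 genes whose profile over the 4 libraries lay nearest to that of Dbp were H2-Aa, H2-Ab1, Pdk2, Trp53inp1 and Rdm1. They were taken by the distance between log2 levels centred on the mean of each gene, among 8464 genes with at least 5 FPKM in a library. Predicted genes, small RNA genes and the members were left out of the 8464. H2-Aa (14960), a chain of class II MHC, was at a distance of 0.239, at 0.92 FPKM in the ManGn library, 0.79 in fOS, 1.77 in the mock extraction and 10.73 in water. Pdk2 (18604), which inhibits pyruvate dehydrogenase, was at a distance of 0.770, at 1.33 FPKM in the ManGn library, 0.82 in fOS, 3.22 in the mock extraction and 11.64 in water. A profile of 4 libraries holds few points. Each of these 5 genes had its highest level with water, as Dbp had, which follows from how they were taken. Each of them reached 5 FPKM with water only.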

How the data were processed

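RNA was sequenced from 1 library per condition. The authors computed FPKM per gene with RSEM and deposited 1 table of 17655 genes with 4 libraries. The RSEM version, aligner, genome build and annotation are not stated in the sources consulted. Other deposited sheets repeat these FPKM or hold the authors' own ratios and were not used.

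Log2 ratios were computed from FPKM plus 0.1, and calls needed 2-fold and 1 FPKM in either library (Python 3.11.15, pandas 2.3.3). Depth was estimated from 279 to 306 low values per library of genes with 1 transcript, with lengths from GENCODE M21 less 25 nt, the best of 5 tried. Reads of Per1, Tef and Arntl, which have 2 transcripts each, are lower bounds. Intervals are exact (Clopper-Pearson, scipy 1.17.1). Only the depth estimate and the fold calls were tried on simulated reads, with a length offset other than the 25 nt found here. Alternatives were other pseudocounts, filters, scalings and thresholds.

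The members and lists were chosen with earlier results of these data known. Named are all 10 members, each gene of the lists of other clock, input and output genes at least 2-fold from both controls in 1 direction with a ligand, and the 5 genes nearest to Dbp. Rora, Bhlhe41, Csnk1d, Csnk1e, Fkbp5, Wee1, Cd14 and Itgam were named after their values were seen. Cell identity was checked with 10 macrophage, 6 fibroblast, 3 lymphocyte and 3 epithelial markers, and the lymphocyte and epithelial markers in the table summed to at most 0.04 FPKM. A gene of the list of other clock genes is not reported here by name.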

Additional observations from a re-analysis of the deposited data

Results flagged for a closer look

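In 2 members the log2 ratios of ManGn to water and of fOS to the mock extraction differed in sign, with 1 of the ratios past 2-fold; these controls share a title letter with the ligand, and what the letter stands for is not stated. For Arntl the log2 ratio of ManGn to water was 0.50, whereas that of fOS to the mock extraction was -1.04. For Tef these values were -1.06 with ManGn and 0.050 with fOS, where the interval of the read ratio, 0.855 to 1.26, held 1, so that no direction was resolved for fOS. With 1 library per condition, neither difference was tested. Each control differed from the other in both genes, with the mock extraction over water at 0.86 for Arntl and -1.28 for Tef. The part of the controls in these differences was not tested.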

How the results depend on the processing

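No paired analysis was possible because each condition has 1 library. A pseudocount of 1 gave 3 lower members for ManGn over water in place of 5, 0 in place of 1 for ManGn over the mock extraction and 0 in place of 2 for fOS over the mock extraction, and 1 higher member in place of 2 for ManGn over fOS. With at least 5 FPKM required, over the mock extraction 0 members were lower for ManGn and 1, Arntl, for fOS. At 1.5-fold, 4 were lower for fOS over the mock extraction, and 1 was higher in each of ManGn over water, fOS over the mock extraction and fOS over water (Clock) and in the mock extraction over water (Arntl). At 3-fold, over the mock extraction 0 were lower for ManGn and 0 for fOS, 3 were lower for the mock extraction over water and 1 was higher for ManGn over fOS. With a pseudocount of 0.01, no filter, centred ratios or upper quartile scaling, each count was within 1.5 times of its value. For fOS over the mock extraction, leaving out the filter added Per3, and upper quartile scaling added Dbp at a log2 ratio of -1.01. Of 240 log2 ratios of members under 4 settings, 233 stayed within their counting interval and 0 changed sign among those past 2-fold. ManGn over fOS was added after the data were seen. Reads of Per2 and Per3 limit the precision of their ratios most.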
